A study of Mus musculus with 6 samples.

Results

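Nkx6-3 is described here with both of its paralogs, Nkx6-1 and Nkx6-2, and with Ank1, the gene next to it on mouse chromosome 8. These 4 genes were found by symbol among 22602 genes with RPKM values (reads scaled to the length of the cDNA in kilobases and to the depth of the library in units of 1000000 reads) in mouse embryonic stem (ES) cells. Nkx6-3 was chosen by its large difference between Sim2 clones and control cells in these same libraries, so its values in that contrast are a description and get no test. Its paralogs were picked by name and Ank1 by position.

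The study switched on Sim2, a bHLH-PAS transcription factor that binds DNA together with ARNT. The Sim2 group holds the clones A6, B8 and C4, with a single library each. These clones carry Flag-tagged mouse Sim2, followed by an IRES and Venus, at the ROSA26 locus behind an hCMV*-1 promoter that is active without tetracycline. The EB3 group holds 3 independent cultures, numbered 0, 1 and 2, of the parental EBRTcH3 line, which lacks the Sim2-Flag transgene. Per the study, 26 h of induction switched on Venus in EB3 as well as in the clones. All 6 cultures were grown with LIF and serum and spent 26 h in tetracycline-free medium, and no library with tetracycline was analysed here. Induced Sim2 and stable differences between the clones and their parent therefore cannot be told apart.

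NKX6 proteins are homeodomain transcription factors that mostly repress their targets together with Groucho co-repressors. Nkx6-1 and Nkx6-2 are known for setting the borders of ventral progenitor domains in the neural tube, and Nkx6-1 also for the identity of pancreatic beta cells. Nkx6-3 is known from the stomach, where it acts in endocrine cells of the antrum, and from the hindbrain. Ank1 encodes ankyrin-1, which ties the spectrin skeleton to the membrane of red blood cells and has short isoforms in muscle.

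Promoter sequence is shown for the paralogs because one of them was transcribed in these cells and the other hardly at all. RefSeq promoters (build GRCm38.p6, 250 bases before to 50 after the start) were found for 2 of the 4 genes, Nkx6-1 (chr5:101664662-101664961, minus strand) and Nkx6-2 (chr7:139582748-139583047, minus strand), and not for Nkx6-3 and Ank1. They are printed 5′ to 3′ along the gene, with CG dinucleotides in capitals.
Nkx6-1: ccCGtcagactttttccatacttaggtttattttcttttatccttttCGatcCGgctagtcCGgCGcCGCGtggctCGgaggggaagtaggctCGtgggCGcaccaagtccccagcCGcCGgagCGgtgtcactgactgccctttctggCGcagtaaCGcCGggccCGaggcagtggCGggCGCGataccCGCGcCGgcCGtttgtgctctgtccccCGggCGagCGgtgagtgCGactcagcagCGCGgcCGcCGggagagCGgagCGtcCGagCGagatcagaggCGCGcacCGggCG
Nkx6-2: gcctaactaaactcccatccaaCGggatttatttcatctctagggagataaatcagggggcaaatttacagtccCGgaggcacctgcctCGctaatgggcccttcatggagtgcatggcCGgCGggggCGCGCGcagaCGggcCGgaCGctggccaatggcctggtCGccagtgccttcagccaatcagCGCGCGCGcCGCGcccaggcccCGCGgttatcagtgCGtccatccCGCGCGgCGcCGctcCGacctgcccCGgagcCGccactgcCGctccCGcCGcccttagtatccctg

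The Nkx6-1 promoter held 40 CG dinucleotides and the Nkx6-2 promoter 32, against a median of 7 over 32851 promoters of the same length. Their GC contents were 67.3% and 66.7%. The letters ACGTG, the core bound by dimers of bHLH-PAS proteins with ARNT, were sought on both strands and stood in neither promoter, while 19.6% of all promoters held them. CG-rich sequence was common to the nearly undetected and the transcribed paralog.

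Library depth was lowest in A6, at 25095861 reads, and highest in C4, at 28269340 reads. Sim2 itself checked the labels, with 168 to 212 RPKM across the clones against 0.0917 to 0.130 RPKM across EB3. All 8 ES cell markers were above the filter of a mean of 1 RPKM, and their summed level was 5828 to 6948 RPKM in clones, against 5822 to 7410 RPKM in EB3. Without Dppa5a, the highest, the other 7 summed to 3530 to 3696 RPKM in clones, against 3682 to 4255 RPKM in EB3. The median log2 difference of the 8 markers was -0.16, and -0.04 without EB3-0, against -0.01 over all tested genes in both fits. None of them was called (limma, lowest adjusted p = 0.145, 1 at an unadjusted p under 0.05), but Zfp42 lay lower in the clones without overlap, at 415 to 439 against 511 to 536 RPKM, and Esrrb higher, at 299 to 450 against 276 to 284 RPKM. Over all 11595 tested genes, 13.4% lay lower and 12.7% higher without overlap, and 2059 had an unadjusted p under 0.05 (limma). EB3-0 stood apart from the other EB3 cultures by cDNA length. Its log2 ratio to them had a median of -0.66 over 411 tested genes with a cDNA of at least 8000 bases and of 0.13 over 2924 genes of 1500 to 2500 bases. This bears on the long cDNA of Ank1 and less on the short cDNAs of the Nkx6 genes.

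Nkx6-3 (mm9 chromosome 8, 24263743 to 24269420, plus strand) has 3 exons, and its annotated transcript of 2236 bases has the length listed as its cDNA. In the clones A6, B8 and C4 it reached 46.0, 37.8 and 38.1 RPKM, against 12.7, 10.8 and 10.5 RPKM in EB3-0, EB3-1 and EB3-2. These values rest on 2580, 2175 and 2411 reads in the clones and on 778, 645 and 612 reads in EB3. All 3 clones lay far above all 3 EB3 cultures, and the lowest clone was over the highest culture by more than the spread within either group. The means were 40.6 ± 4.64 RPKM and 11.3 ± 1.23 RPKM (SD, n = 3 each), a ratio of 3.58. On the log2(RPKM + 0.5) scale the difference was 1.80 ± 0.12 (SE). In bulk RNA, a change in the number of cells of a type and a change in RNA per cell cannot be told apart. Each clone by itself was at 4.05, 3.33 and 3.36 times the EB3 mean in the order A6, B8, C4.

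The 3 clones did not rank by Nkx6-3 as they did by Sim2. B8 had the highest Sim2 level, 212 RPKM, and the lowest Nkx6-3 level, whereas A6 had the highest Nkx6-3 level at 196 RPKM of Sim2. The spread of Nkx6-3 within groups was ordinary for a tested gene. Its SD on the log2 scale was 0.16 over the clones and 0.15 over EB3, and 57.8% and 45.9% of tested genes had a lower SD in these groups. Nkx6-3 was not silent in the parental cells, where 72.8% of the listed genes had a lower mean. In the clones this share was 89.5%.

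**Figure D1:**
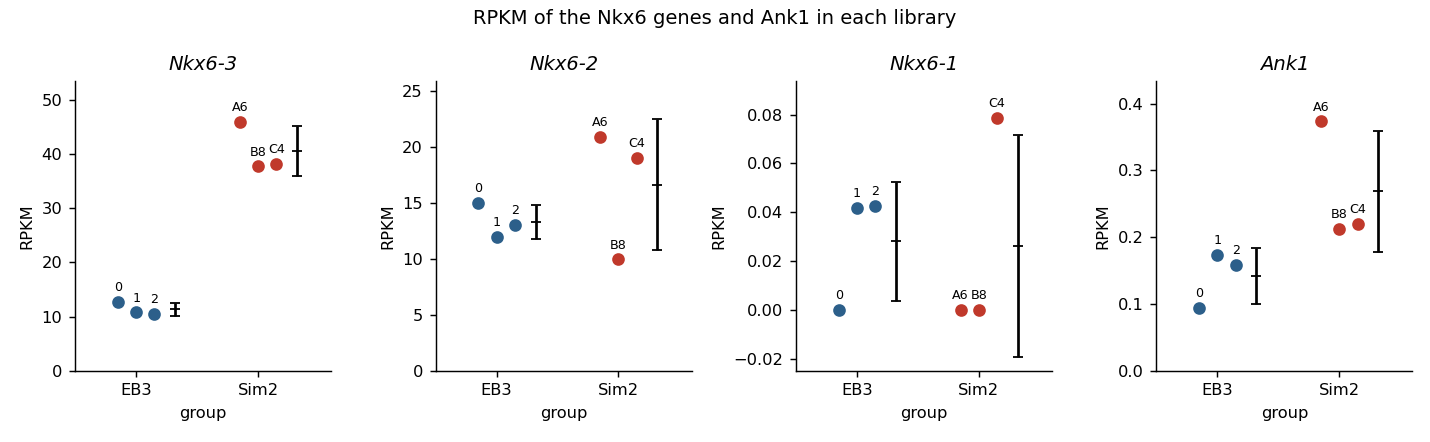
RPKM (y axis, linear, a scale of its own in each panel) of Nkx6-3, Nkx6-2, Nkx6-1 and Ank1 in the 3 EB3 cultures (blue) and the 3 Sim2 clones (red), 1 point a library, with the mean and SD of each group beside them in black. Nkx6-3 sits between 37.8 and 46.0 RPKM in the clones and between 10.5 and 12.7 RPKM in EB3, Nkx6-2 overlaps between the groups, and Nkx6-1 is near 0 throughout.

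Nkx6-2 (mm9 chromosome 7, 146765275 to 146768696, minus strand; listed cDNA 1907 bases) was the paralog at a similar level. In the clones A6, B8 and C4 it reached 20.9, 9.93 and 19.0 RPKM, and 14.9, 12.0 and 13.0 RPKM in EB3-0, EB3-1 and EB3-2. A6 and C4 were above all EB3 cultures and B8 was below all of them, so the groups overlapped. The clones averaged 16.6 ± 5.85 RPKM and EB3 averaged 13.3 ± 1.52 RPKM (SD, n = 3 per group). The log2 difference was 0.25 ± 0.25 (SE), with an adjusted p of 0.656 from limma and an exact permutation p of 0.4. The value depended on which clone was kept, with 0.57 without B8 (limma, adjusted p = 0.145), 0.12 without C4 and 0.05 without A6.

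The spread of Nkx6-2 over the clones was wide. Its SD on the log2 scale was 0.56 there and 0.16 over EB3. Of the tested genes, 97.2% had a lower SD over the clones and 49.7% a lower SD over EB3. The value of B8 rested on 488 reads and those of A6 and C4 on 999 and 1024, so the gap is not one of a few reads.

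Nkx6-1 (mm9 chromosome 5, 102088216 to 102093730, minus strand) was at the limit of detection. It had 0 reads in A6, 0 in B8 and 4 in C4, and 0, 2 and 2 reads in EB3-0, EB3-1 and EB3-2. Its highest level was 0.0788 RPKM, in C4. In the libraries with 0 reads, 3 reads would have been worth 0.0612 to 0.0666 RPKM. The level that a count of 0 still allows is higher than this where both mates of a pair are counted. No fold is given, because 5 of the 6 libraries lay at or under 3 reads. A difference between the groups was not detectable at this depth (exact permutation p = 1). The listed cDNA of 1795 bases is shorter than the annotated transcript of 3368 bases.

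Within each library the ratio of Nkx6-3 to Nkx6-2, both in RPKM and thus per length, does not depend on the scaling of the library. In A6, B8 and C4 this ratio came to 2.20, 3.80 and 2.01, and 0.853, 0.902 and 0.808 in EB3-0, EB3-1 and EB3-2. Nkx6-2 was the higher of the pair in every EB3 culture and Nkx6-3 in every clone. The summed RPKM of the 3 Nkx6 genes went from 24.7 ± 2.65 in EB3 to 57.3 ± 9.58 in the clones (SD, n = 3 each), and Nkx6-3 made up 46.0% ± 1.36 and 71.5% ± 6.70 of it. The high ratio in B8 came with its low Nkx6-2, not with a high Nkx6-3. The order of mean levels was Nkx6-2, Nkx6-3, Ank1, Nkx6-1 in EB3 and Nkx6-3, Nkx6-2, Ank1, Nkx6-1 in the clones. In EB3 the ranges of Nkx6-2 and Nkx6-3 overlapped, from 12.0 to 14.9 and from 10.5 to 12.7 RPKM.

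Reads of the paralogs could be kept apart by sequence. Among annotated transcripts, the best aligned stretch of Nkx6-3 with Nkx6-2 was 178 bases at 81.5% identity, and that with Nkx6-1 was 340 bases at 72.6%. In any ungapped stretch of 100 bases, the length of a read, Nkx6-3 differed from each paralog at 16 bases or more, and Nkx6-1 from Nkx6-2 at 17 or more. The closest stretches lay in the coding sequence. In the mm9 genome, 0 places outside the own locus matched 100 bases of any of the 4 transcripts at 90% identity or more.

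**Figure D2:**
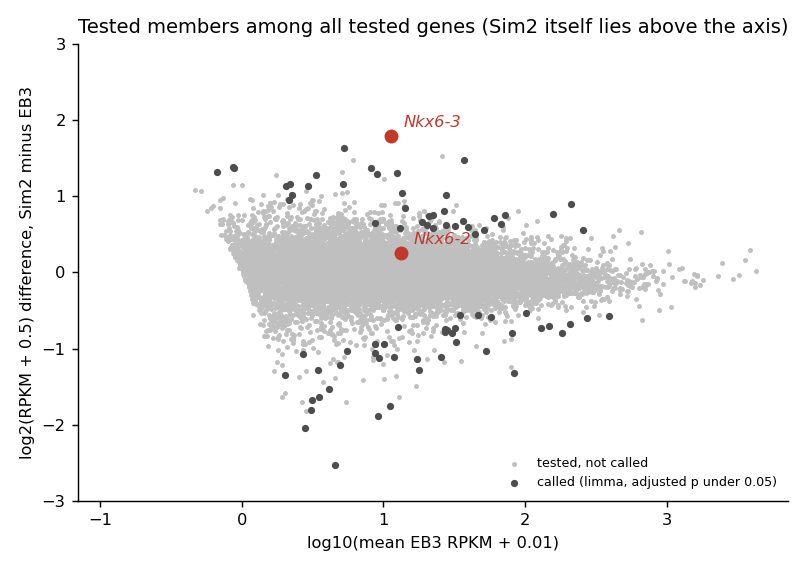
Difference between Sim2 clones and EB3 on the log2(RPKM + 0.5) scale (y axis) against log10 of the mean EB3 RPKM plus 0.01 (x axis) for 11595 tested genes, 1 point a gene, called genes in dark grey. Nkx6-3 (red) is at 1.80 and Nkx6-2 (red), at a similar EB3 level, is at 0.25 inside the cloud; Sim2, at 8.30, is outside the axis.

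Over all 11595 tested genes, 0.345% were called higher in the clones and 0.354% lower (limma, adjusted p under 0.05). An unadjusted p under 0.05 (limma) was reached by 2059 of the 11595, so counts of genes at that threshold are to be read against this number. The 3 clones lay above the 3 EB3 cultures in 12.7% of tested genes and below them in 13.4%. Of the 4 genes described here, 2 passed the filter on low values, Nkx6-3 and Nkx6-2. Groups that do not overlap are thus common in these libraries, and the separation of Nkx6-3 is described by its size rather than by the lack of overlap.

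Ank1 (mm9 chromosome 8, 24085354 to 24260966, plus strand) ends 2776 bases before the start of Nkx6-3, and both are read in the same direction. Its level was low, at 0.373, 0.213 and 0.220 RPKM in A6, B8 and C4, against 0.0936, 0.173 and 0.159 RPKM in EB3-0, EB3-1 and EB3-2. These are 77, 45 and 51 reads in the clones and 21, 38 and 34 reads in EB3. The clones were above the EB3 cultures without overlap, as in 5.48% of the 6368 genes under the filter with at least 1 read, and 8.02% of these genes lay below EB3 without overlap. The means were 0.268 ± 0.0909 and 0.142 ± 0.0422 RPKM (SD, n = 3 each), a ratio of 1.89. The exact permutation test gave 0.1, below which 3 libraries against 3 cannot go. In a limma fit of all genes with a read the adjusted p was 0.305, and with voom on the recovered reads it was also 0.305, so Ank1 was not called.

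The size of the Ank1 difference depended on the scale. It was 0.26 ± 0.11 (SE) on the log2(RPKM + 0.5) scale, where the pseudocount exceeds the values and 0.16 remains without A6, and 0.91 ± 0.37 with voom on the reads. The cDNA of Ank1 has 8218 bases, and EB3-0, its lowest library, was low over long cDNAs in general. With the length trend of each library removed on the log2(RPKM + 0.5) scale, the difference was 0.11 and the groups overlapped, EB3-0 at -0.33 lying above B8 at -0.65 and C4 at -0.53. With the trend removed from log2(RPKM) without a pseudocount, a version added after seeing the data, the levels were 0.373, 0.190 and 0.212 RPKM in A6, B8 and C4 and 0.125, 0.161 and 0.147 RPKM in EB3-0, EB3-1 and EB3-2, without overlap. Ank1 has 20 annotated transcripts of 328 to 8366 bases, and a read from a short one is still divided by 8218 bases. Nkx6-3 exceeded Ank1 by 123 to 178 times in the clones and by 62.4 to 136 times in EB3 (RPKM ratio). Mir486 and Mir3107, microRNA genes inside Ank1, were listed at 0 in all 6 libraries. Their listed lengths are 128 and 90 bases and the libraries were made for mRNA, so this 0 does not show that the microRNAs were absent.

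The surroundings of Nkx6-3 were followed over 1 Mb on each side, in which 24 other genes were listed and 18 tested. Their median log2 difference was -0.10, against -0.01 over all tested genes, with a range of -0.28 to 0.48, and 7 were higher and 11 lower. None was called (limma, lowest adjusted p = 0.182; 1 at an unadjusted p under 0.05; 0 with voom). Of the 18, 1 lay above EB3 without overlap and 3 lay below, where 12.7% and 13.4% of all tested genes did so. Of all 11595 tested genes, 2059 had an unadjusted p under 0.05 (limma). On chromosome 8 as a whole, 626 other genes had a median of 0.00, with 0 called higher and 1 called lower.

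**Figure D3:**
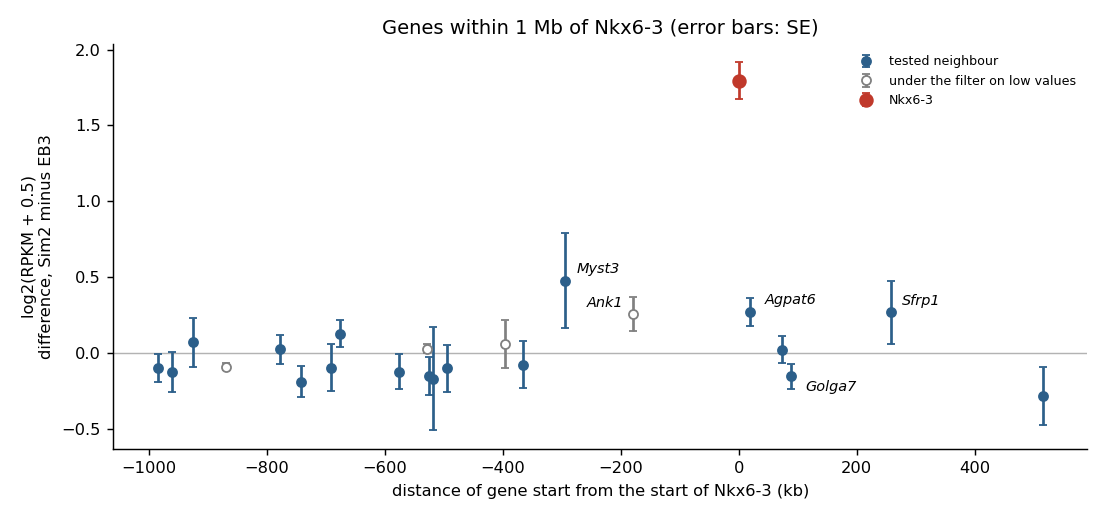
Difference between Sim2 clones and EB3 on the log2(RPKM + 0.5) scale (y axis, with SE) against the distance of each gene's start from that of Nkx6-3 in kb (x axis). Tested neighbours (blue) run from -0.28 to 0.48 and genes under the filter (open) include Ank1 at 0.26, while Nkx6-3 (red) is at 1.80.

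Downstream, Agpat6, which encodes a glycerol-3-phosphate acyltransferase and points toward Nkx6-3 from the other strand with its end 13997 bases away, was the tested neighbour that lay above EB3 without overlap. It had 21.2, 23.4 and 21.9 RPKM in A6, B8 and C4 and 18.4, 17.8 and 18.7 RPKM in EB3-0, EB3-1 and EB3-2. Its log2 difference was 0.27 ± 0.09 (SE) with an adjusted p of 0.182 from limma. Nkx6-3, Nkx6-1 and Agpat6 are on the study's list of genes assigned to SIM2-bound regions, and Nkx6-2 and Ank1 are not. The study assigned regions between genes or in introns to the closest gene on each side. A listed gene therefore need not be the nearest, and neighbours can share a region. Distances to the regions and the share of all genes on the list were not examined here. Beyond Agpat6, Gins4, a subunit of the GINS replication complex, differed by 0.02 ± 0.09. Golga7, a partner of a palmitoyltransferase, differed by -0.16 ± 0.08, with its clones below EB3 without overlap, as for Mrps31 and Polb farther away. Sfrp1, a secreted Wnt antagonist, differed by 0.27 ± 0.21, with B8 at 27.3 RPKM and the other 5 libraries at 13.1 to 18.8 RPKM.

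Upstream of Ank1, Myst3, a histone acetyltransferase with a listed cDNA of 9126 bases, had 14.1 to 21.0 RPKM in the clones. It had 15.6 and 15.8 RPKM in EB3-1 and EB3-2 but 6.66 RPKM in EB3-0, which sets its log2 difference of 0.48 ± 0.31. Ap3m2, a subunit of an adaptor complex, differed by -0.08 ± 0.16. Ikbkb, a kinase of the NF-kappaB pathway, differed by -0.10 ± 0.16 and A930013F10Rik by -0.17 ± 0.34.

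The other NK homeobox genes were nearly all silent. Of 11 on the list, 10 were in the table and 1 was tested, Nkx2-9, a gene of the ventral neural tube. It had 5.23, 2.97 and 3.89 RPKM in A6, B8 and C4 and 6.45, 7.06 and 7.41 RPKM in EB3-0, EB3-1 and EB3-2, so the clones lay below EB3 without overlap. Its log2 difference of -0.75 ± 0.19 (SE) was not called (limma, adjusted p = 0.110), and its sign was the opposite of that of Nkx6-3. The other 9 had means under 1 RPKM.

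The Groucho co-repressors with which NKX6 proteins act were transcribed in all 6 libraries. Of 6 genes 5 were tested and 0 called (limma; 0 at an unadjusted p under 0.05; 0 with voom), with a median log2 difference of 0.05 and a range of -0.09 to 0.14. The median stayed between -0.01 and 0.13 when any single library was left out. Tle3 had 23.0 to 25.1 RPKM in clones, against 20.4 to 22.8 RPKM in EB3 (0.14 ± 0.09, SE; adjusted p = 0.488 from limma). Tle4 differed by 0.05 ± 0.15, Tle1 by 0.07 ± 0.14 and Aes, a short member that lacks the repeats of the others, by -0.09 ± 0.20.

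Of 25 genes that pattern the ventral neural tube 6 were tested and 0 called (limma; 1 at an unadjusted p under 0.05; 0 with voom). Their median log2 difference was 0.21, against -0.01 over all tested genes. Gli1, the target and effector of Hedgehog signalling, had 25.3 to 34.3 RPKM in clones, against 32.6 to 43.6 RPKM in EB3, which overlap, and a log2 difference of -0.36 ± 0.15 (SE; limma, adjusted p = 0.263). Gli2, another effector, differed by 0.22 ± 0.11, the receptor Ptch1 by 0.31 ± 0.29 and the transducer Smo by 0.20 ± 0.16. Ptch1 had 10.6 RPKM in EB3-0 and 17.9 to 26.6 RPKM in the other 5 libraries, and without EB3-0 its difference was -0.06 and the median of the list 0.03. Without B8 this median was 0.11. Their ligand Shh had at most 0.110 RPKM, and the domain markers Olig2, Nkx2-2 and Dbx1 had at most 0.227 RPKM.

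Of 26 genes of the pancreas and stomach endoderm 6 were tested and 0 called (limma; 0 at an unadjusted p under 0.05; 0 with voom), with a median log2 difference of -0.26 and a range of -0.56 to 0.31. The median was -0.02 without B8 and -0.16 without EB3-2. Neurod1, a bHLH factor of endocrine cells and neurons, had 10.4 to 16.1 RPKM in clones, against 9.58 to 16.7 RPKM in EB3. Chga, the granule protein chromogranin A, differed by -0.46 ± 0.23 (SE; limma, adjusted p = 0.356). Neurog3 differed by 0.05 ± 0.20 and Mafa, which encodes an activator of the insulin genes, by 0.31 ± 0.17. The hormone genes Ins1, Ins2, Gcg and Sst were listed at 0 in all 6 libraries, as were Muc5ac and Tff1 of the gastric surface, while Gast, the hormone of the antrum, had 0.426 to 1.58 RPKM in clones, against 0.966 to 1.52 RPKM in EB3.

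Of 17 ankyrins and genes of the membrane skeleton 9 were tested and 0 called (limma, and 0 with voom). An unadjusted p under 0.05 (limma) was reached by 3 of the 9 and by 2059 of all 11595 tested genes. The median log2 difference of the 9 was 0.24, with a range of -0.29 to 0.45. Without overlap, 3 lay above EB3 and 1 below, where 12.7% and 13.4% of all tested genes did so. Many of these cDNAs are long, and the median was 0.14 with the length trend removed and 0.08 without EB3-0. Epb4.9, which encodes the actin-bundling protein dematin, differed by 0.38 ± 0.09 (SE; adjusted p = 0.101) and Add1, which encodes an adducin, by 0.36 ± 0.10 (adjusted p = 0.129, both from limma). Without EB3-0 both were called (limma, adjusted p = 0.0398 for Epb4.9 and 0.0275 for Add1), in a fit that called 694 genes and 2.54% of all tested genes as higher. Epb4.9 lies on chromosome 14 (71003478 to 71029961), where 22 other genes within 1 Mb were tested. Their median log2 difference was 0.52, and 19 had a positive sign. Sptan1, listed as Spna2, differed by 0.28 ± 0.12, and by 0.14 with the length trend removed, and Sptbn1, listed as Spnb2, by 0.45 ± 0.27, the latter with EB3-0 at 13.4 RPKM and the other 5 libraries at 27.7 to 31.6 RPKM.

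**Figure D4:**
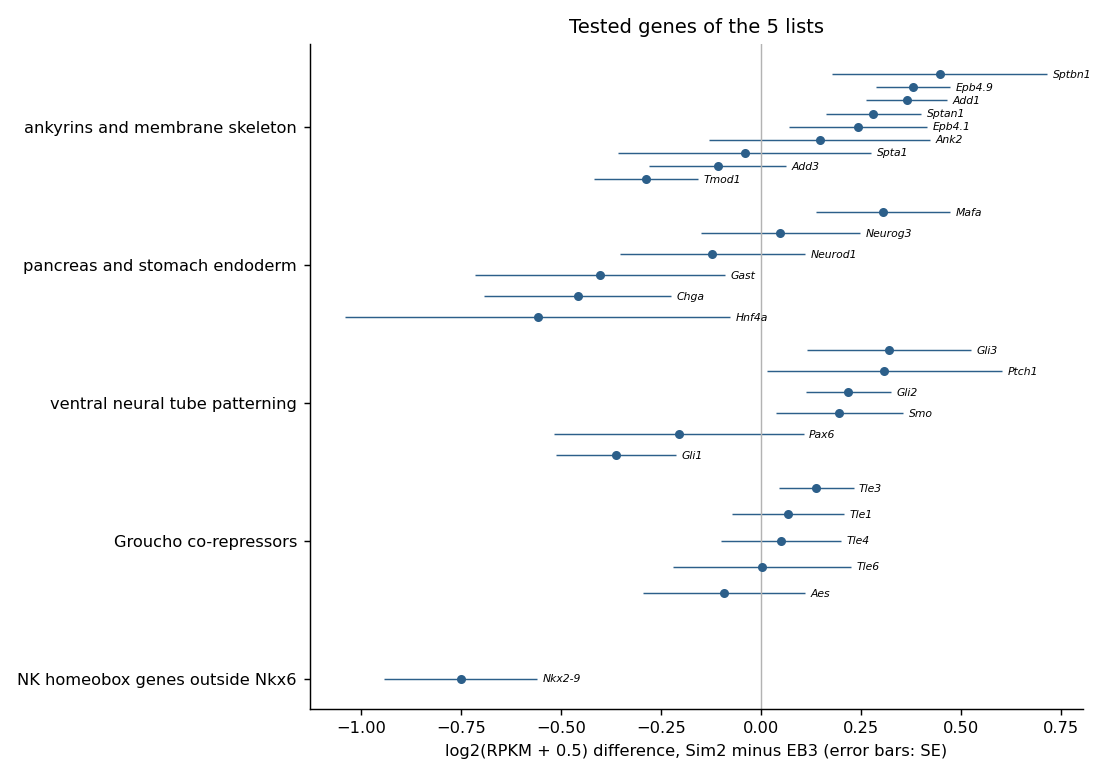
Difference between Sim2 clones and EB3 on the log2(RPKM + 0.5) scale (x axis, with SE) for the tested genes of 5 lists (y axis), 1 point a gene. The points run from -0.75 for Nkx2-9 to 0.45 for Sptbn1, and 0 of them were called.

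Markers of other cell types were low. Erythroid markers, whose cells use Ank1, summed to 1.50 to 2.27 RPKM over 6 genes in the clones and 1.89 to 2.08 RPKM in EB3, with Hbb-b1 and Hba-a1 listed at 0. Fibroblast markers summed to 11.2 to 14.5 and 10.5 to 13.9 RPKM over 5 genes, nearly all of it from Thy1, with Col1a1 at 0.165 RPKM or less. The 9 gastric and pancreatic markers summed to 8.65 to 14.2 RPKM in clones, against 14.8 to 16.4 RPKM in EB3. Chga carried this sum, and the other 8 genes summed to 2.98 to 4.76 and 2.42 to 4.89 RPKM, which overlap. The 6 ventral neural markers summed to 1.91 to 5.15 RPKM in clones, against 3.58 to 4.95 RPKM in EB3, with Dbx1 listed at 0. Pax6 carried this sum. The other 5 genes, all under the filter, summed to 0.265 to 0.549 and 0.644 to 0.791 RPKM, lower in the clones without overlap. Of single genes under the filter with a read, 8.02% lay lower in this way.

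Of 5 early endoderm markers 1 was tested, Sox7, and it was not called (0.47 ± 0.20, SE; limma, adjusted p = 0.268, with an unadjusted p under 0.05; also not called with voom). The summed level of the 5 did not overlap between the groups, at 3.52 to 4.18 RPKM in clones, against 2.29 to 2.64 RPKM in EB3. Sox17, a defining factor of endoderm, had 0.280, 0.298 and 0.294 RPKM in A6, B8 and C4 and 0.117, 0.0239 and 0.0245 RPKM in EB3-0, EB3-1 and EB3-2. These are 22, 24 and 26 reads in the clones and 10, 2 and 2 reads in EB3, so EB3-1 and EB3-2 were at the limit of detection. Gata4 was also without overlap, at 0.846 to 0.980 against 0.518 to 0.745 RPKM, while Sox7, Gata6 and Foxa2 overlapped. Both separated genes are under the filter, where 5.48% of genes separate in this direction. The part of such cells in the Nkx6-3 difference was not tested.

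The genes with the pattern most like Nkx6-3 over the 6 libraries, by Pearson's r of log2(RPKM + 0.5), were Zfp36, Pla2g6, Lmo2, Vps11 and Acap3, with r from 0.995 to 0.998. The 6 points fall into the 2 groups, so r mainly records that a gene separates them, and 139 tested genes had an r of at least 0.95. Likeness in shape did not mean likeness in size. Zfp36, which encodes an RNA-binding protein that destabilises mRNAs, had 19.0 to 21.1 RPKM in clones, against 12.8 to 13.5 RPKM in EB3. Pla2g6, a phospholipase gene, had 35.6 to 36.8 and 29.6 to 30.8 RPKM. Lmo2, which encodes a LIM-only bridging protein, came closest to Nkx6-3 in size among these 5, with 2.64 to 3.53 and 0.745 to 0.957 RPKM. Its ratio of means was 3.54, close to the 3.58 of Nkx6-3. On the log2(RPKM + 0.5) scale its difference was 1.38 against 1.80, as the pseudocount weighs more at its low values. Vps11, a subunit of tethering complexes, had 36.8 to 38.7 and 31.6 to 32.8 RPKM, and Acap3, which encodes a GTPase-activating protein of ARF, had 7.84 to 8.29 and 6.11 to 6.42 RPKM.

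The mirror pattern was strongest in Depdc1b, Pcnp and Ipo5, with r from -0.996 to -0.992. Ipo5, which encodes an importin, had 76.9 to 79.9 RPKM in clones, against 128 to 131 RPKM in EB3, Pcnp 22.1 to 24.4 and 32.6 to 36.7 RPKM, and Depdc1b 14.5 to 15.1 and 16.9 to 17.2 RPKM. The paralog was unlike its relative, since Nkx6-2 had an r of 0.42 with Nkx6-3 and stood at rank 3155 of the tested genes. Sim2 had an r of 0.991.

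**Figure D5:**
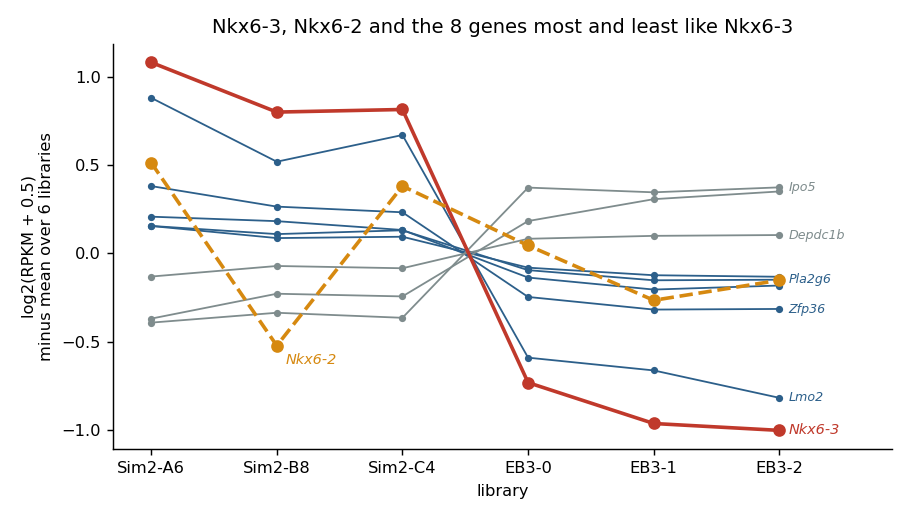
Level of each gene in the 6 libraries (x axis) as log2(RPKM + 0.5) minus its mean over them (y axis), for Nkx6-3 (red), Nkx6-2 (orange, dashed), the 5 genes most like Nkx6-3 (blue) and the 3 least like it (grey); lines only join the points of a gene. The blue genes step down from the clones to EB3 as Nkx6-3 does but by less on this scale, and Nkx6-2 dips in B8.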

How the data were processed

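RNA of 6 cultures was sequenced as paired reads from TruSeq libraries. Per the methods of the study, the authors used BWA with its default settings and mm9 as the genome, counted exon coverage of each gene with a custom pipeline and deposited it as RPKM; versions, strand use and the treatment of reads with several positions were not given in the sources used here. Values of 22602 genes were used, and the number of per-sample columns not used was 0.

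RPKM was transformed to log2(RPKM + 0.5). Genes whose mean reached 1 RPKM, 11595 in all, were tested with limma (version 3.58.1, R 4.3.3; lmFit, eBayes with a trend, no covariate), and p-values were adjusted over all of them by the Benjamini-Hochberg method; a gene is called at an adjusted p under 0.05. The count model fixed for whole counts was not used, because the file holds RPKM. Reads were recovered as RPKM times cDNA length divided by the smallest step of each library. Of the values, 100% lay within 0.01 of a whole number. Recovered reads were used for depth and for limma's voom as an alternative. Genes with 2 reads outnumbered those with 1 read in every library (742 against 199 in A6), the pattern of mates counted apart. Reads are thus not independent molecules, and limits from reads cover counting error only. Single genes were compared with a 2-sided exact permutation test, whose smallest p with 3 libraries against 3 is 0.1. Where a gene was not tested, its SE comes from its own group variances.

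Genes were named by a rule: the 4 members, Sim2, the 4 nearest tested genes on each side of Nkx6-3 within 1 Mb, the called genes of each list or else its 4 tested genes of highest mean RPKM, and the 5 genes most and 3 least correlated with Nkx6-3. Other genes named from the lists and markers, and most in the last section, fall outside it and were chosen after their values were seen. The members and lists were chosen with earlier results of these data known. Older gene symbols were matched through RefSeq synonyms. Transcripts of an mm9 annotation (GENCODE) were compared with blastn (version 2.17.0). The scripts were tested on simulated data. The alternatives tried were other pseudocounts, filters, normalizations and models, and leaving out each library.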

Additional observations from a re-analysis of the deposited data

How the results depend on the processing

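The log2 difference of Nkx6-3 stayed within 1.70 to 1.88 over its 14 alternatives. Nkx6-2 was called in 0 of 14 alternatives, with an adjusted p from limma of 0.145 to 0.938. The number of genes called over all tested genes was 81 (40 higher) and moved to 28 with no filter, 250 with the length trend removed, 6 with EB3-1 and EB3-2 averaged as a single library, and 53 with voom on the recovered reads and no filter. Leaving out each library moved it from 6 to 694, the highest without EB3-0. Of the neighbours of Nkx6-3, 0 were called in any of the 14 alternatives, and of the list genes 0 to 2 when a library was left out (Add1 and Epb4.9 without EB3-0). The difference of Ank1 was 0.60 with a pseudocount of 0.1, 0.11 with the length trend removed and 0.91 with voom and no filter. With the trend removed and no pseudocount it was 0.78. That of Nkx6-1, which rests on 8 reads in all, was -0.44 with voom. The voom fits with no filter and the fit of Ank1 without a pseudocount were chosen after seeing the data. Ank1 and Nkx6-1 were under the filter, so the stricter filter, quantile normalization and filtered voom gave no value for them. No paired analysis was possible because the labels give the groups no shared replicate numbers.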

Other observations

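Under the filter on low values were 9 NK homeobox and 19 ventral patterning genes, with Nkx2-2 on both lists. Of these 9 and 19 genes, 1 and 2 had no read in any library. Over both lists, 4 genes were lower in the clones without overlap and 1 was higher. The genes named here were picked after their values were seen and were not tested. Of all genes under the filter with a read, 8.02% lay lower and 5.48% higher without overlap. Nkx1-2, another NK homeobox gene, had 0, 0 and 0.0744 RPKM in A6, B8 and C4 and 0.154, 0.197 and 0.282 RPKM in EB3-0, EB3-1 and EB3-2. Dbx2, a homeobox gene of intermediate neural progenitors, had 0.0935 to 0.171 RPKM in the clones and 0.321 to 0.329 RPKM in EB3. Irx3, whose domain in the neural tube borders that of Olig2, had 0.0194 to 0.151 and 0.214 to 0.255 RPKM. En1, of the midbrain and of ventral interneurons, had 0.0624 to 0.249 and 0.359 to 0.630 RPKM. Mnx1, a homeobox gene of motor neurons, was the higher one, with 0.121 to 0.187 RPKM in the clones and 0 to 0.105 RPKM in EB3. Its values rest on 6, 7 and 5 reads in A6, B8 and C4 and on 3, 0 and 4 reads in EB3-0, EB3-1 and EB3-2. Over the 6 libraries Nkx1-2 had 0 to 14 reads, Irx3 1 to 14, Dbx2 6 to 20 and En1 4 to 43.

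Nkx6-2 was not the only gene of these lists in which B8 stood apart from the other clones, and other clones stood apart in other genes. The examples were picked after their values were seen, and no count per clone was made. Hnf4a, a nuclear receptor of liver and gut endoderm, had 1.98 RPKM in A6, 0.593 in C4 and 0.0356 in B8, against 0.967 to 1.49 RPKM in EB3. Chga had 5.28 RPKM in B8 and 9.44 to 12.4 RPKM in the other 5 libraries. Ank2 went the other way, with 2.73 RPKM in B8 and 1.01 to 1.56 RPKM elsewhere. Pax6 had 1.64 RPKM in A6, against 3.44 and 4.79 RPKM in B8 and C4. Neurod1 had 16.1 RPKM in C4, against 10.4 and 10.6 RPKM in A6 and B8.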
